A study of Rattus norvegicus with 9 samples.

Results

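Replicative and mechanical stress were set against each other directly, by comparing the miRNAs of cartilage progenitor cells grown to passage 9 (P9, the replicative senescence model) with those of passage 3 cells placed under flow fluid shear stress (FFSS, the mechanical degeneration model). The members were all rows of the count table that carry an annotated rat miRNA name, 635 of 726 rows, in the 6 libraries of these groups out of 9. All libraries came from primary wild-type (WT) cultures of rat condylar cartilage, the cartilage that caps the jaw joint. The other 3 libraries were passage 3 cells without FFSS (P3), the study's control, which the shear-stressed cells share as their starting passage. P9 and FFSS therefore differ both in passage number and in shear, and a P9 against FFSS difference alone cannot tell these apart. P3 levels are therefore given beside many, though not all, of the differences described in detail. The sources used here do not give the strength or duration of the shear, the number of animals or the origin of the replicates.

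A miRNA is a short RNA that guides a silencing complex to messenger RNAs, mostly by pairing of its seed, bases 2 to 8 from the 5′ end. Members of a family share a seed and so many targets, while members of a genomic cluster are cut from a shared primary transcript and so tend to share their transcription. Paralogs with the same seed but different genes can therefore be controlled separately although they act on overlapping targets. In cultured cells, senescence is known for p53-driven miRNAs such as the miR-34 family, and inflammatory and mechanical signals for NF-kB-driven ones such as miR-146a.

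The sequences below are the mature miRNAs on which the results turn, from RefSeq (GRCr8), which held 578 of the 635 annotated names. They are written 5′ to 3′ with the seed in capitals. The first group holds the paralogs whose ratio within a library separated P9 from FFSS. miR-146a-5p and miR-146b-5p share a seed and differ by G18A and U21C over their shared length, counted from the 5′ end of miR-146a-5p. miR-195-5p and miR-16-5p differ by A10G and G11U, counted from the 5′ end of miR-195-5p. The annotated miR-10b-5p starts 2 bases later than miR-10a-5p, so their bases 2 to 8 differ, although over 21 aligned bases there was 1 difference, U12A in miR-10a-5p positions.
miR-146a-5p: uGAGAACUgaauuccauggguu
miR-146b-5p: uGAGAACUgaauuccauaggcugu
miR-34a-5p: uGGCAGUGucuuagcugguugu
miR-34c-5p: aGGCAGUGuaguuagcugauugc
miR-195-5p: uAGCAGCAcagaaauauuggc
miR-497-5p: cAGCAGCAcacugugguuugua
miR-16-5p: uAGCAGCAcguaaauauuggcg
miR-322-5p: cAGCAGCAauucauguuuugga
miR-10a-5p: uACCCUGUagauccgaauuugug
miR-10b-5p: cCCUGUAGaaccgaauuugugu
miR-20a-5p: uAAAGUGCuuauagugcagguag
miR-106b-5p: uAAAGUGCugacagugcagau

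The second group shows members of clusters that moved as a block. miR-221-3p and miR-222-3p share a seed, whereas miR-494-3p, miR-541-5p and miR-127-3p, 3 products of the Dlk1-Dio3 locus, have 3 different seeds.
miR-221-3p: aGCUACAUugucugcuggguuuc
miR-222-3p: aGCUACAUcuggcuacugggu
miR-494-3p: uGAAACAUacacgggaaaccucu
miR-541-5p: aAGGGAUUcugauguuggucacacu
miR-127-3p: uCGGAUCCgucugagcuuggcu

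The last pair shows why some rows cannot be read alone: miR-3557-5p is annotated on the strand opposite to miR-378a-3p, and a run of at least 15 bases of the first is the reverse complement of the second.
miR-378a-3p: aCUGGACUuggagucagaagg
miR-3557-5p: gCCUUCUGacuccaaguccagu

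Library totals, in reads over all rows, were 7614513, 7867438 and 8177357 in P9 replicates 1 to 3, 2878910, 7082142 and 3896403 in FFSS, and 7522702 to 8862560 in P3, so FFSS replicates 1 and 3 were shallow. Levels are given as CPM (reads of a miRNA per 1e+06 reads of the library), with SD over 3 libraries, and a count of 3 reads corresponds to 0.367 to 0.394 CPM in P9 and 0.424 to 1.04 CPM in FFSS, counting error only. P9 replicate 3 stood apart: over log2(CPM + 1) its correlation across miRNAs was 0.977 and 0.981 with the other P9 libraries, which correlated at 0.996, and 0.985 with P3 replicate 2. FFSS replicate 1 correlated at 0.977 and 0.982 with the other FFSS libraries, which reached 0.992 with each other. The 5 miRNAs with the most reads held 59.9% to 63.1% of the reads in P9 and 47.7% to 52.8% in FFSS. Since nothing in the labels ties a replicate to a culture or animal of its own, p-values here describe the scatter among these libraries, and that scatter could be technical. In such bulk samples, fewer cells of a type and less RNA per cell cannot be told apart.

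Of the 635 rows, 432 had enough reads to be tested. The other 203 held 0.00425% to 0.00785% of a library's reads, with at most 11.5 counts on average over the 6 libraries, and 11 of them had no read in any. Between P9 and FFSS, 150 of 432 miRNAs passed the test, which is 34.7% (edgeR quasi-likelihood test on counts scaled by TMM, Benjamini-Hochberg adjusted p under 0.05). Of these, 99 were higher in P9 (22.9%) and 51 lower (11.8%), 97 and 38 of them by at least 2-fold. Counted once where rows share reads, the numbers were 94 and 49. The near-equal rows miR-203a-3p and miR-203b-5p, which are antisense to each other, missed that rule and still count as 2. The difference between the models was thus broad, while P9 against P3 gave 7.41% and FFSS against P3 gave 20.8% of the same miRNAs. The median log2 fold change over all 432 was 0.03.

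Whether the separation could be seen in the libraries themselves was read from their overlap. The 3 P9 libraries did not overlap the 3 FFSS libraries in CPM for 42.8% of the miRNAs, with P9 above in 23.1% and below in 19.7%. Of the 150 called miRNAs, 141 showed this separation and 9 overlapped. The split of the calls moved with the scaling: with upper-quartile factors it was 94 higher and 76 lower, or 55.3% higher instead of 66.0%. The number of lower calls also rested on single libraries. It was 27 without P9 replicate 2, 29 without P9 replicate 1, 30 without FFSS replicate 3, 31 without P3 replicate 1, 33 without P3 replicate 3 and 78 without P9 replicate 3.

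**Figure D1:**
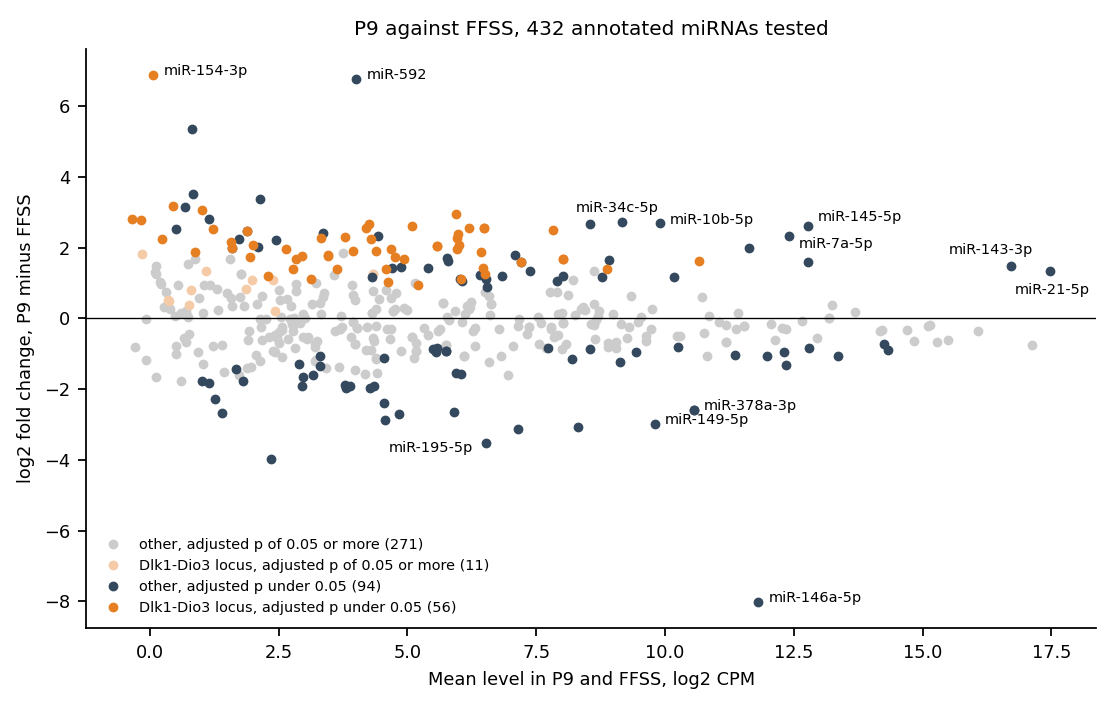
Difference between P9 and FFSS (vertical axis, log2 fold change, P9 minus FFSS) against the mean level in both groups (horizontal axis, log2 CPM) for the 432 annotated miRNAs tested. Each point is a miRNA, dark or orange where the adjusted p was under 0.05 and pale where it was not, with orange for the Dlk1-Dio3 locus. The 56 called miRNAs of that locus all lie above 0, miR-146a-5p lies far below, and the value of miR-154-3p, with 0 reads in FFSS, depends on the fit and is no measured fold.

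miR-146a-5p, a brake on NF-kB signalling that is itself induced by NF-kB, gave the largest fold difference among the miRNAs of at least 50 CPM. Its level was 15.8, 15.5 and 47.6 CPM in P9, and 17002, 650.2 and 3853 CPM in FFSS. The P3 libraries had 400.8, 398.5 and 392.1 CPM. Every P9 library was thus below every P3 library and every FFSS library was above, and the FFSS libraries also differed widely among themselves. The difference was -8.02 on the log2 scale (SE 1.19, adjusted p = 7.24e-04 by edgeR), with -3.82 for P9 against P3 (adjusted p = 0.0419) and 4.20 for FFSS against P3 (adjusted p = 0.0198), comparisons that share the P3 libraries. Leaving out 1 library in turn gave between -8.85 and -5.99, and the call held each time.

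Its paralog miR-146b-5p, from another gene, went the opposite way. It stood at 352 ± 71.7 CPM in P9 and 164 ± 26.2 CPM in FFSS (n = 3), with P3 at 167 ± 6.13 CPM. The lowest P9 library, at 282 CPM, was above the highest FFSS library, at 192 CPM. The log2 fold change was 1.19 (SE 0.31, adjusted p = 0.00953), and without FFSS replicate 3 the adjusted p was 0.0514. The ratio of miR-146a-5p to miR-146b-5p, which does not depend on how libraries are scaled, was -4.47, -4.77 and -2.57 on the log2 scale in P9 and 6.74, 1.76 and 4.77 in FFSS. In P9 miR-146b-5p was therefore the more abundant of the pair, and in FFSS and P3 miR-146a-5p was. The ratios differed by -8.36 (SE 1.09, limma adjusted p = 9.17e-04). Summed over this seed, the level was 379 ± 56.8 CPM in P9 and 7332 ± 8657 CPM in FFSS, with a fold change of -4.22 (edgeR adjusted p = 0.00219) that was -2.33 without FFSS replicate 1 and lost its call without P9 replicate 3 (adjusted p = 0.0613).

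In the miR-34 family, a set of p53 targets that slow cell division, 2 of 6 tested members were higher in P9, beside 22.9% of all miRNAs, and none was lower, and the median log2 fold change was 1.23. miR-34c-5p, from the miR-34b/c transcript, read 1350, 1108 and 508 CPM in P9 and 83.4, 234 and 157 CPM in FFSS. P3 lay at 155, 151 and 150.3 CPM, among the FFSS libraries. The P9 against FFSS difference was 2.72 (SE 0.42, adjusted p = 6.87e-04), and it was between 2.56 and 3.25 without any single library. FFSS against P3 was 0.00 (SE 0.39, adjusted p = 0.993). The product of the other hairpin of this transcript, miR-34b-3p, had 117 ± 25.6 CPM in P9 and 54.0 ± 5.82 in FFSS, against 19.8 ± 8.01 in P3. It thus stood highest in P9, and in FFSS it was above P3 as well (1.40, adjusted p = 0.0219). P9 against FFSS was 1.23 (SE 0.36, adjusted p = 0.0185), with adjusted p = 0.0588 without FFSS replicate 3.

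miR-34a-5p, encoded elsewhere, did not pass: it was at 569, 506 and 169 CPM in P9 and 193, 577 and 482 CPM in FFSS, and the groups overlapped (0.08, SE 0.44, adjusted p = 0.901). The paralogs were separated by their ratio instead. The log2 ratio of miR-34a-5p to miR-34c-5p was -1.25, -1.13 and -1.59 in P9, 1.21, 1.30 and 1.62 in FFSS, and 1.17, 0.93 and 1.48 in P3. miR-34c-5p was thus the more abundant paralog in each P9 library and miR-34a-5p in each of the other 6. The ratio differed between P9 and FFSS by -2.70 (SE 0.23, limma adjusted p = 7.08e-05). The counts summed over the 5 rows with this seed, the miR-449 rows included, were 1424 ± 659 CPM in P9 and 584 ± 275 CPM in FFSS (1.37, SE 0.40, edgeR adjusted p = 0.0183). P3 was at 510 ± 67.1 CPM. The groups overlapped in this sum, since P9 replicate 3, at 685 CPM, lay below FFSS replicate 2, at 821 CPM.

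The seed AGCAGCA, shared by miRNAs such as miR-16 that repress cyclins, held called members in both directions, which was the case for 2 of the 123 seeds with a called miRNA. The other was the seed of miR-146. Summed over the 5 rows with the seed AGCAGCA, the level was 803 ± 346 CPM in P9 and 1264 ± 152 CPM in FFSS. P3 was at 966 ± 286 CPM. This sum did not pass (-0.60, SE 0.33, edgeR adjusted p = 0.168). miR-195-5p and miR-497-5p, cut from a common transcript, were lower in P9. miR-195-5p had 17.60, 12.71 and 11.98 CPM in P9 against 151, 213 and 150.1 CPM in FFSS, and 88.8, 52.8 and 120.1 CPM in P3, so that the P9 libraries lay below all others (-3.53, SE 0.38, adjusted p = 1.81e-04). miR-497-5p had 5.30 ± 1.53 and 42.19 ± 12.05 CPM, with P3 at 32.9 ± 17.0 CPM (-2.88, SE 0.46, adjusted p = 7.10e-04), and the opposite arm miR-195-3p 6.91 ± 6.63 and 49.99 ± 2.09 CPM (-2.69, SE 0.57, adjusted p = 0.00342). These 3 rows were the 3 called, all lower, of 7 tested in the family, beside 11.8% of all.

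miR-322-5p, the rat counterpart of miR-424, carries the same seed and was higher in P9, at 56.6, 39.0 and 11.3 CPM against 4.52, 7.77 and 9.75 CPM in FFSS, and 14.9 ± 6.16 CPM in P3 (2.34, SE 0.53, adjusted p = 0.00487). Its libraries did not overlap, although P9 replicate 3 came near the FFSS range. The log2 ratio of miR-322-5p to miR-497-5p was 3.52, 2.47 and 1.47 in P9 and -2.61, -2.71 and -2.25 in FFSS, with -1.08 ± 0.20 in P3. P9 and FFSS differed by 5.01 (SE 0.45, limma adjusted p = 7.08e-05). miR-16-5p, the most abundant member named here, overlapped between the groups at 650 ± 295 and 946 ± 163 CPM (-0.50, SE 0.35, adjusted p = 0.279). The ratio of miR-195-5p to miR-16-5p was accordingly lower in P9, at -5.43 ± 0.51 against -2.47 ± 0.32 in FFSS and -3.10 ± 0.18 in P3 on the log2 scale (P9 against FFSS -2.96, SE 0.29, limma adjusted p = 9.68e-05).

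miR-10a and miR-10b lie in different Hox gene clusters, Hoxb and Hoxd, whose genes record a cell's position along the body axis. miR-10b-5p read 1184, 1601 and 2145 CPM in P9 and 444, 193 and 161 CPM in FFSS, with 669, 1202 and 454 CPM in P3. It was higher in every P9 library than in every FFSS library (2.71, SE 0.52, adjusted p = 0.00217). miR-10a-5p read 25.1, 23.9 and 35.6 CPM in P9 and 546, 71.4 and 145.3 CPM in FFSS, with 42.9 ± 4.15 CPM in P3, and the difference had the opposite sign (-3.11, SE 0.64, adjusted p = 0.00319). This size rested in part on FFSS replicate 1, without which it was -1.59 and still passed. The log2 ratio of miR-10a-5p to miR-10b-5p was -5.56, -6.06 and -5.91 in P9. It was 0.30, -1.43 and -0.15 in FFSS, and -4.08, -4.66 and -3.45 in P3. miR-10b-5p was thus far the more abundant in P9 and P3 alike, and FFSS was the group with the smallest gap. The P9 against FFSS difference was -5.42 (SE 0.46, limma adjusted p = 7.08e-05). Reads of near-identical paralogs may be divided by the counter in a way that no source used here describes. The Hox list held 2 higher and 1 lower of 5 tested members, beside 22.9% and 11.8% of all miRNAs, with miR-10b-3p as the other higher member (2.41, SE 0.42, adjusted p = 0.00111).

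**Figure D2:**
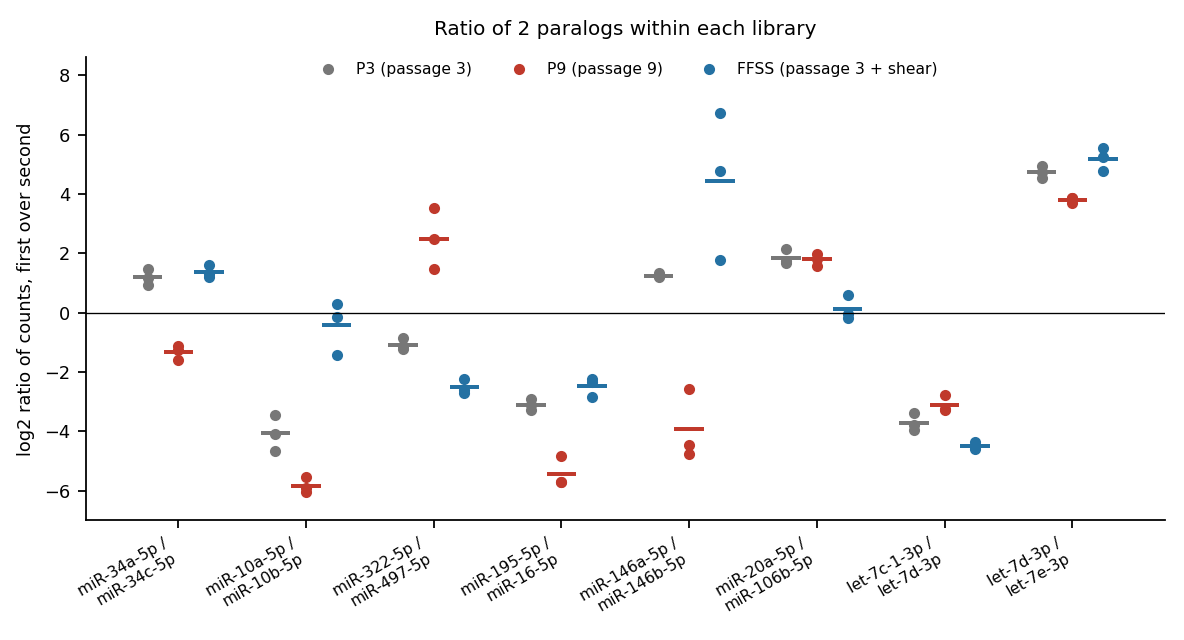
Log2 ratio of the counts of 2 paralogs within each library (vertical axis) for the 8 pairs with the smallest p in P9 against FFSS. Each point is a library, each bar the mean of 3, in gray for P3, red for P9 and blue for FFSS. P9 and FFSS do not overlap in any of the 8 pairs, and for miR-34a-5p over miR-34c-5p, miR-322-5p over miR-497-5p and miR-146a-5p over miR-146b-5p the ratio lies on opposite sides of 0.

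Over all 124 paralog pairs tested, the ratio differed between P9 and FFSS for 26, or 21.0% (limma on log2 ratios, adjusted p under 0.05), beside 17 for P9 against P3 (13.7%) and 15 for FFSS against P3 (12.1%). In 3 of the 26 both members were called in opposite directions, namely the miR-146, miR-10 and miR-322/miR-497 pairs. In 16 pairs 1 member was called, and in 7 pairs neither was. The let-7 family, which restrains growth and developmental genes, made up 13 of the 26 and 50 of the 124, and its pairs share members and so are not independent. The number of called pairs was 17 without P9 replicate 2 or without FFSS replicate 3. For miR-20a-5p, of the miR-17-92 transcript that drives proliferation, over miR-106b-5p, its paralog from another transcript, the log2 ratio was 1.79 ± 0.20 in P9, 1.85 ± 0.25 in P3 and 0.13 ± 0.42 in FFSS. P9 and P3 thus lay together and FFSS apart (P9 against FFSS 1.66, SE 0.26, limma adjusted p = 0.00254).

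Within let-7, 3 of 18 tested rows were lower in P9 and none was higher, beside 11.8% lower over all miRNAs, with a median of -0.19. let-7b-5p, among the most abundant members, had 6974, 6078 and 6317 CPM in P9 and 12424, 16428 and 14560 CPM in FFSS, with 10918 ± 1021 CPM in P3. The groups did not overlap (-1.07, SE 0.21, adjusted p = 0.00273). let-7d-3p (-0.87, adjusted p = 0.0282) and let-7b-3p (-1.10, adjusted p = 0.0326) lost their calls in 7 of the 9 fits that left out 1 library, namely any of the P3 libraries, P9 replicate 1 or 2 and FFSS replicate 1 or 3, with adjusted p from 0.0639 to 0.163. The ratio of let-7c-1-3p to let-7d-3p was higher in P9 by 1.40 (SE 0.23, limma adjusted p = 0.00313) and that of let-7d-3p to let-7e-3p lower by -1.39 (SE 0.24, limma adjusted p = 0.00378). Both ratios held without any single library.

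The Dlk1-Dio3 region, an imprinted locus whose miRNAs are made from the maternal copy in a long array, separated the models as a block. Of 92 listed rows in the table, 67 were tested, and 56 were higher in P9 and 0 lower. The other 11 also had fold changes above 0. The median log2 fold change over the 67 was 1.88, also with miR-154-3p set at its bound, against -0.22 for the 365 tested miRNAs outside the locus, of which 43 were higher in P9. Libraries of P9 and FFSS did not overlap for 54 of the 67. No member was called lower in any fit run, and between 26 and 58 were called higher. The value of miR-299b-3p, which did not pass (0.37), was -0.21 without both P9 replicate 3 and FFSS replicate 1. The 26 came from the test for a fold change of at least 2. The 56 were not counted once where rows share reads. A separate fit with such rows merged, over 404 miRNAs, called 55 higher. Since that fit also changed other calls, 55 is not a recount of the 56. The rows share transcripts and are not independent.

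The summed level of the locus was 7051, 6472 and 6562 CPM in P9 and 1062, 2732 and 2765 CPM in FFSS. The sum runs over all 67 tested rows, and rows that share reads were not counted once in it. In P3 it was 7026, 6636 and 5026 CPM. The P9 libraries thus lay within or just above the P3 range, and the FFSS libraries lay below both. FFSS replicate 1, the shallowest library, was the lowest of them. Side by side, and with the P3 libraries shared, the median of the 67 rows was 0.35 for P9 against P3, where edgeR called 0 (2 at an unadjusted p under 0.05), and -1.51 for FFSS against P3, where 38 were called lower.

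In the stretch from miR-379 to miR-410, 36 of 41 tested rows were higher in P9, and in the stretch from miR-770 to miR-136 11 of 12 were, with hairpins placed by RefSeq and joined where they lie within 10 kb on a strand. miR-127-3p, antisense to the retrotransposon-like gene Rtl1 and the most abundant of those named here, read 2638, 2525 and 1984 CPM in P9 and 366, 1036 and 1124 CPM in FFSS, with P3 at 2601 ± 540.4 CPM (1.63, SE 0.34, adjusted p = 0.00319). miR-541-5p read 291, 326 and 526 CPM in P9 and 44.5, 104 and 72.1 CPM in FFSS, with P3 at 331 ± 74.7 CPM (2.50, SE 0.41, adjusted p = 7.24e-04). In both, the P9 and FFSS libraries did not overlap. miR-494-3p read 141, 148 and 36.9 CPM in P9 and 3.13, 27.1 and 13.1 CPM in FFSS, with P3 at 102 ± 18.5 CPM, the largest difference in the locus among miRNAs of at least 50 CPM (2.94, SE 0.63, adjusted p = 0.0035).

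Further members of the locus showed the same order. miR-409a-5p was at 58.0 ± 6.92 and 10.3 ± 3.55 CPM (2.60, SE 0.34, adjusted p = 4.06e-04), and the opposite arm miR-409a-3p, which shares its reads with the antisense row miR-409b, at 152.2 ± 61.8 and 28.2 ± 6.62 CPM (2.56, SE 0.41, adjusted p = 7.10e-04). Both arms of the miR-493 hairpin differed to a like extent, at 2.27 (SE 0.33, adjusted p = 6.70e-04) for miR-493-5p and 2.32 (SE 0.38, adjusted p = 7.24e-04) for miR-493-3p. miR-411-3p (2.38), miR-543-3p (2.57), miR-370-3p (2.08), miR-1193-3p (2.68) and miR-299a-3p (1.91) were also higher, and each kept its call without any single library. The scarce miR-154-3p had 0 reads in the 3 FFSS libraries and 2.09 ± 0.94 CPM in P9, at least 9.66-fold higher against a floor of 3 counts over the group.

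**Figure D3:**
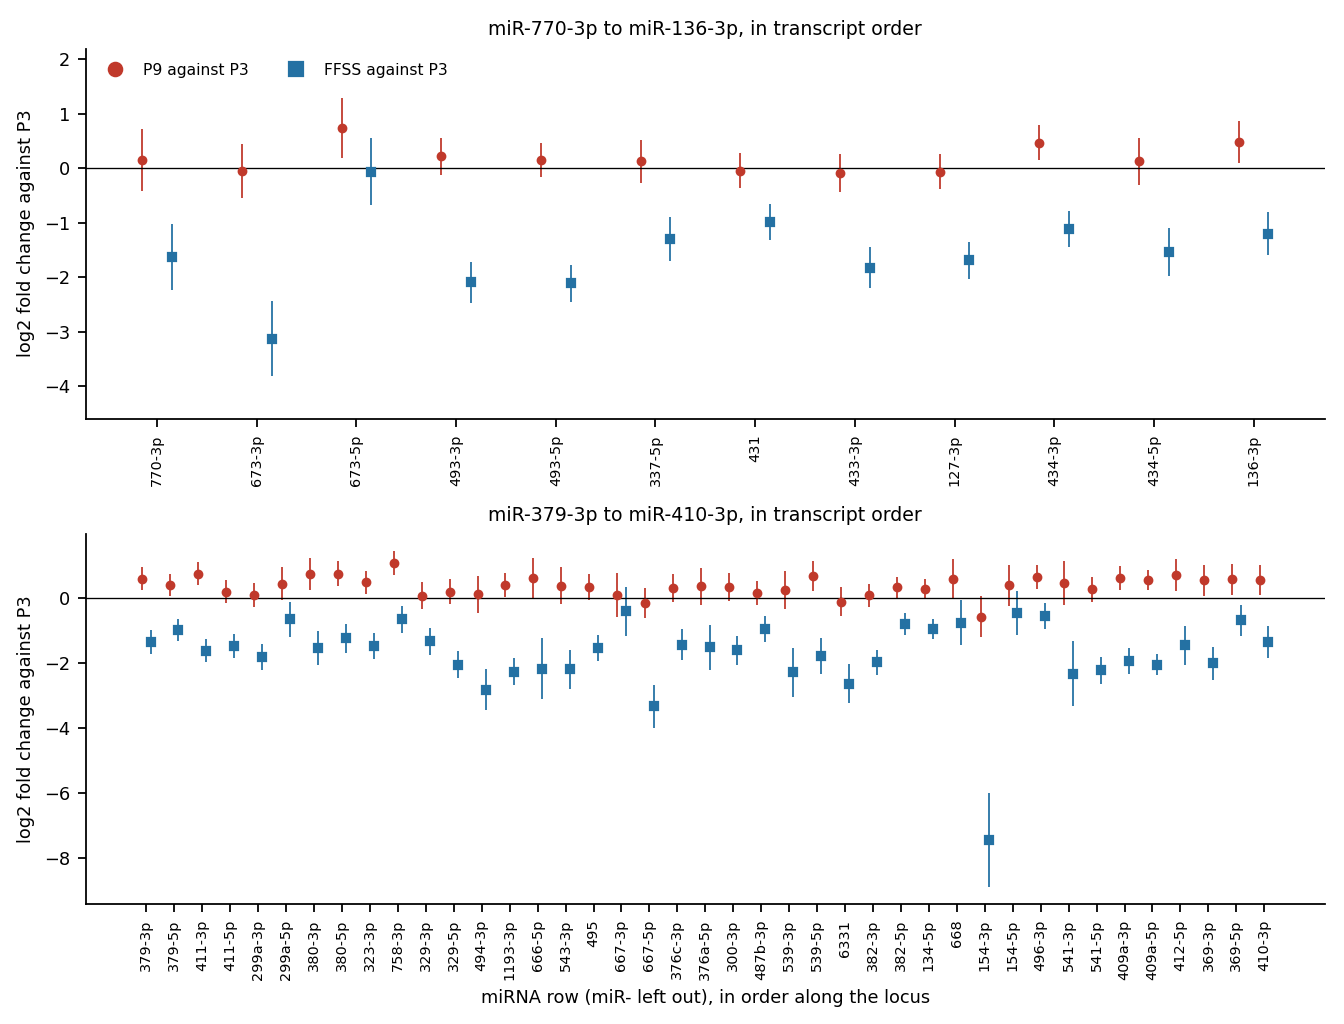
Log2 fold change against P3 (vertical axis, with SE bars) for the tested rows of the 2 stretches of the Dlk1-Dio3 locus, in order along the transcript (horizontal axis), with red circles for P9 and blue squares for FFSS, which share the P3 libraries. The red points lie near 0 and the blue points below, with a gap at nearly every row. The value of miR-154-3p in FFSS, a row with 0 reads there, depends on the fit.

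Over the 38 genomic clusters with at least 2 tested rows, 13 had 2 or more called rows. In 10 of the 13 these were all higher in P9, in 3 all lower and in 0 mixed. These clusters are not independent. The stretches from miR-379, miR-770, miR-341, miR-3578 and miR-3579, all with higher calls, belong to the Dlk1-Dio3 locus. Those from miR-3578 to miR-3576 and from miR-3579 to miR-299b-5p lie antisense to rows of the stretch from miR-379 to miR-410. Both hold rows that share reads with it. miR-24-3p, whose call is lost in 7 of the 9 fits without 1 library, counts in both clusters of miR-23. Outside the Dlk1-Dio3 locus, the clusters described here with higher calls were miR-34b/c, miR-143 with miR-145, miR-221 with miR-222, miR-322 to miR-450a and miR-17-92, and those with lower calls were miR-497 with miR-195 and both miR-23/27/24 clusters. The cluster of miR-143 and miR-145, known from smooth muscle and fibroblasts for its part in contractile and matrix programmes, had 4 of 4 rows higher, beside 22.9% of all. miR-143-3p read 178130, 151322 and 133849 CPM in P9 and 41488, 67545 and 69750 CPM in FFSS (1.48, SE 0.24, adjusted p = 7.24e-04), with P3 at 62078 ± 6073 CPM. miR-145-5p read 15344, 14346 and 5999 CPM in P9 and 1443, 2821 and 1876 CPM in FFSS (2.61, SE 0.35, adjusted p = 4.53e-04), with P3 at 5958 ± 581 CPM. The FFSS level thus lay with P3 for miR-143-3p and below P3 for miR-145-5p (FFSS against P3 -1.57, adjusted p = 0.00944). miR-143-5p was called although its groups overlapped (1.65, SE 0.39, adjusted p = 0.00583). The call on miR-145-3p (1.19, adjusted p = 0.0159) was lost without FFSS replicate 3 (0.0531).

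The cluster of miR-221 and miR-222, which targets the cell cycle inhibitor p27, had 3 of 4 rows higher in P9, beside 22.9% of all. miR-222-3p read 4441, 4500 and 5932 CPM in P9 and 1078, 1431 and 1591 CPM in FFSS (1.99, SE 0.25, adjusted p = 4.06e-04). miR-221-3p read 12872, 10397 and 7931 CPM and 2549, 4481 and 4022 CPM (1.59, SE 0.25, adjusted p = 6.87e-04), and miR-221-5p 639 ± 114 and 107 ± 18.9 CPM (2.68, SE 0.34, adjusted p = 4.06e-04). The 3 rows had no overlap, and P3 lay between both groups, at 2507 ± 362, 5678 ± 844 and 423 ± 37.9 CPM. Over the shared seed of the 3p arms, the summed difference was 1.73 (SE 0.26, edgeR adjusted p = 6.18e-04), the smallest p among 54 seed families of at least 2 rows, of which 15 (27.8%) passed. The remaining row, miR-222-5p, did not pass (0.81, adjusted p = 0.0514).

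In the X-linked cluster from miR-322 to miR-450a, 5 of 12 rows were higher in P9, beside 22.9% of all, and none was lower. Besides miR-322-5p, miR-450a-5p read 287, 267 and 150.05 CPM in P9 and 93.8, 97.6 and 99.8 CPM in FFSS, with P3 at 206 ± 6.76 CPM (1.36, SE 0.30, adjusted p = 0.00429). miR-542-3p had 82.7 ± 39.1 and 25.9 ± 9.38 CPM (1.71, SE 0.44, adjusted p = 0.00953). Of the miR-17-92 cluster, 4 of 7 rows were higher, beside the same share. miR-20a-5p had 210.4 ± 118 CPM in P9, 62.1 ± 12.5 CPM in FFSS and 204 ± 88.4 CPM in P3 (1.79, SE 0.46, adjusted p = 0.00961), so that FFSS was the group apart. miR-19a-3p stood at 3.296 ± 1.902 CPM in P9 and 0.27 ± 0.26 CPM in FFSS (3.52, SE 0.75, adjusted p = 0.0035), on few reads. miR-17-5p (1.20, adjusted p = 0.0292) lost its call without P9 replicate 1, P9 replicate 2, FFSS replicate 2 or FFSS replicate 3 (0.0619 to 0.0893). miR-106b-5p and miR-93-5p, of the paralog cluster miR-106b-25, overlapped between the groups (0.21, adjusted p = 0.745, and 0.25, adjusted p = 0.600).

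miR-7a-5p, a miRNA of neuroendocrine cells that restrains growth factor signalling, was among the more abundant miRNAs that separated the models. It read 7354, 11119 and 8435 CPM in P9, 1979, 2485 and 1169 CPM in FFSS and 6035 ± 1702 CPM in P3 (P9 against FFSS 2.34, SE 0.39, adjusted p = 7.73e-04). FFSS again lay below both other groups (FFSS against P3 -1.72, adjusted p = 0.00985). miR-21-5p, a stress-induced miRNA and the one with the most reads over P9 and FFSS together, read 274513, 318314 and 185700 CPM in P9 and 126792, 119944 and 73418 CPM in FFSS (1.35, SE 0.32, adjusted p = 0.00613), with 188982 ± 32315 CPM in P3. Its libraries did not overlap between P9 and FFSS, and in each FFSS library it stood below miR-148a-3p, at 216124, 148637 and 189309 CPM there. The other 4 most abundant over both groups were miR-143-3p, given above, and 3 that did not pass: miR-148a-3p (-0.74, adjusted p = 0.143), miR-99a-5p (-0.35, adjusted p = 0.616) and miR-27b-3p (-0.60, adjusted p = 0.118). For miR-99a-5p the P9 libraries read 23009, 27543 and 118982 CPM, and without P9 replicate 3 the difference was -1.55 (adjusted p = 0.00107). Without the same library miR-148a-3p passed as well (-1.24, adjusted p = 0.00801).

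Several scarce miRNAs were present at passage 9 and scarcer still in FFSS and P3. Apart from miR-130b-5p, which the naming rule chose from its list, they were chosen after their values were seen. miR-592, from an intron of a glutamate receptor gene, had 386, 303 and 53 reads in P9 and 0, 2 and 2 in FFSS, or 50.7, 38.5 and 6.48 CPM against 0.00, 0.28 and 0.51 CPM (6.77, SE 0.94, adjusted p = 5.47e-04), with 0.52 ± 0.39 CPM in P3. Both arms of miR-384 were close to the detection limit, with 23, 39 and 19 reads of miR-384-3p in P9 and 0, 0 and 1 in FFSS. The arm miR-384-5p had 29, 20 and 21 reads in P9 and 0, 5 and 0 in FFSS. miR-325-5p stood at 8.88 ± 2.30 CPM in P9, 1.99 ± 0.52 CPM in FFSS and 0.93 ± 0.09 CPM in P3 (2.21, SE 0.41, adjusted p = 0.00164). miR-130b-5p had 7.92 ± 3.61, 0.85 ± 0.38 and 0.25 ± 0.14 CPM in the same order (3.39, SE 0.58, adjusted p = 9.06e-04). miR-592 and miR-130b-5p had enough reads to be tested only through P9, the group in which they were high. Their adjusted p-values are therefore no separate support for the difference. On log2(TPM + 1), which shrinks differences of scarce miRNAs, that of miR-130b-5p was 2.22 and that of miR-19a-3p 1.66.

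Among miRNAs lower in P9, miR-224-5p and miR-452-5p come from an intron of a GABA receptor gene and miR-149-5p from an intron of glypican 1. In the list that joins them with miR-184, 3 of 4 tested rows were lower, beside 11.8% of all, with a median of -2.69. miR-224-5p read 38.9, 35.5 and 109 CPM in P9, 667, 404 and 641 CPM in FFSS and 189 ± 19.0 CPM in P3 (-3.07, SE 0.47, adjusted p = 6.87e-04). miR-149-5p read 66.6, 68.0 and 394 CPM in P9, 881, 1866 and 2073 CPM in FFSS and 625 ± 109 CPM in P3 (-2.99, SE 0.64, adjusted p = 0.0035). In both, P9 replicate 3 was the highest P9 library and still below every FFSS library. miR-452-5p had 7.09 ± 1.44 and 39.4 ± 5.91 CPM (-2.38, SE 0.37, adjusted p = 6.87e-04). miR-184, at 57.5 ± 64.0 and 191.3 ± 149.04 CPM, did not pass (-1.60, adjusted p = 0.109).

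miR-378a, hosted by the gene of a mitochondrial coactivator and linked to fatty acid metabolism, had both tested arms lower in P9. The reads of miR-378a-3p, which cannot be told from those of miR-3557-5p, came to 434, 313 and 473 CPM in P9 and 3603, 1592 and 2657 CPM in FFSS (-2.60, SE 0.38, adjusted p = 6.70e-04). P3, at 1741 ± 689 CPM, was nearer to FFSS (FFSS against P3 0.58, adjusted p = 0.256). miR-378a-5p stood at 8.08 ± 0.23 and 32.7 ± 10.4 CPM (-1.91, SE 0.38, adjusted p = 0.00273). Its counts differed by 2.92% to 12.5% from those of the antisense row miR-3557-3p, so these rows may also hold the same reads.

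miR-708, whose 5p arm the series is named for, comes from an intron of a teneurin gene. miR-708-3p read 10.9, 11.7 and 22.1 CPM in P9 and 49.3, 110.4 and 156 CPM in FFSS, without overlap, with P3 at 78.6 ± 10.4 CPM, and its call held without any single library. miR-708-5p read 22.1, 18.9 and 5.63 CPM in P9 and 9.38, 34.9 and 31.8 CPM in FFSS, which overlapped, with P3 at 62.2 ± 25.4 CPM. The fit gave miR-708-3p a difference of -2.64 (SE 0.43, adjusted p = 7.24e-04) and miR-708-5p -0.63 (SE 0.52, adjusted p = 0.359), and a difference between the arms was not shown, since their ratio did not pass (2.02, limma adjusted p = 0.0984).

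The miR-23/27/24 clusters, known for their part in blood vessel growth, had 4 of 11 tested rows lower in P9, beside 11.8% of all, and none higher, with a median of -0.60. Of the 4, only miR-23b-3p kept its call without any single library. miR-23b-3p read 3538, 2410 and 2686 CPM in P9 and 7531, 6423 and 8799 CPM in FFSS, with P3 at 4839.8 ± 1129 CPM (-1.30, SE 0.22, adjusted p = 8.28e-04). miR-23a-3p, 1 base apart from it, had 3344 ± 923 and 6881 ± 1278 CPM (-0.96, SE 0.24, adjusted p = 0.00838). Summed over their seed the difference was -1.10 (SE 0.25, edgeR adjusted p = 0.00404), and it held without any single library, whereas miR-23a-3p alone lost its call without P9 replicate 2 (adjusted p = 0.0746). The call on miR-23a-5p (-1.78, adjusted p = 0.0185) was lost without P9 replicate 1 (0.0830), P9 replicate 2 (0.0672) or FFSS replicate 3 (0.0794). That on miR-24-3p (-0.89, adjusted p = 0.0229) was lost in 7 of 9 such fits, all but those without P9 replicate 3 or FFSS replicate 1 (0.0536 to 0.155). miR-27a-3p, from the same transcript, did not pass (-0.60, adjusted p = 0.178).

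Cartilage miRNAs checked the labelled cell type. miR-140, made within a gene that is controlled by Sox9 and needed for skeletal growth, was present in all libraries, and the summed level of the cartilage list of 5 rows was 2590 to 3847 CPM in P9, 6077 to 7202 CPM in FFSS and 4150 to 7370 CPM in P3. miR-140-3p read 2999, 2585 and 2037 CPM in P9 and 6378, 5528 and 4830 CPM in FFSS, without overlap, with P3 at 4809.9 ± 1478 CPM (-1.06, SE 0.27, adjusted p = 0.00953). It was the 1 called row of 4 tested, beside 11.8% lower over all. miR-140-5p (-0.82, adjusted p = 0.0709), miR-455-3p (-0.77, adjusted p = 0.0553) and miR-455-5p (0.24, adjusted p = 0.582) did not pass. miR-214-3p, a miRNA of skeletal mesenchyme, was lower in P9 at 1646 ± 572 against 3589 ± 711 CPM (-1.03, SE 0.26, adjusted p = 0.0095). Without both P9 replicate 3 and FFSS replicate 1 the values were -0.69 for miR-140-3p and for miR-214-3p.

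Weaker differences depended on single libraries. miR-30b-5p (-1.14, adjusted p = 0.0374) lost its call without any of the libraries but FFSS replicate 2, and was -0.63 without FFSS replicate 1 (adjusted p = 0.198). miR-320-3p, made without the enzyme Drosha, lost its call (-1.23, adjusted p = 0.0118) without P9 replicate 1 (0.0704) or P9 replicate 2 (0.0923). miR-203a-3p, a miRNA of epithelia, read 45.0, 44.1 and 7.95 CPM in P9 and 144, 58.0 and 98.8 CPM in FFSS, and the row annotated antisense to it, miR-203b-5p, 42.8, 41.9 and 7.09 and 134, 53.4 and 90.9 CPM. The counts of the 2 rows differed by 4.9% to 10.8% within a library, so they may hold the same reads and are not 2 separate results. Both passed narrowly (-1.57, adjusted p = 0.0361, and -1.55, adjusted p = 0.0418), and both lost the call without any P3 library, P9 replicate 1, FFSS replicate 1 or FFSS replicate 3. Beside this, the 13 epithelial marker rows summed to 34.97 to 122 CPM in P9 and 145.3 to 366 CPM in FFSS, without overlap. P3 was at 132 to 170 CPM. Of 7 epithelial rows tested, all had fold changes below 0, with a median of -0.83. The 2 called were the miR-203 rows, beside 11.8% lower over all. miR-205, a defining marker, was at 0.00 CPM in P9 replicate 3. The part of epithelial cells in the difference was not tested.

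**Figure D4:**
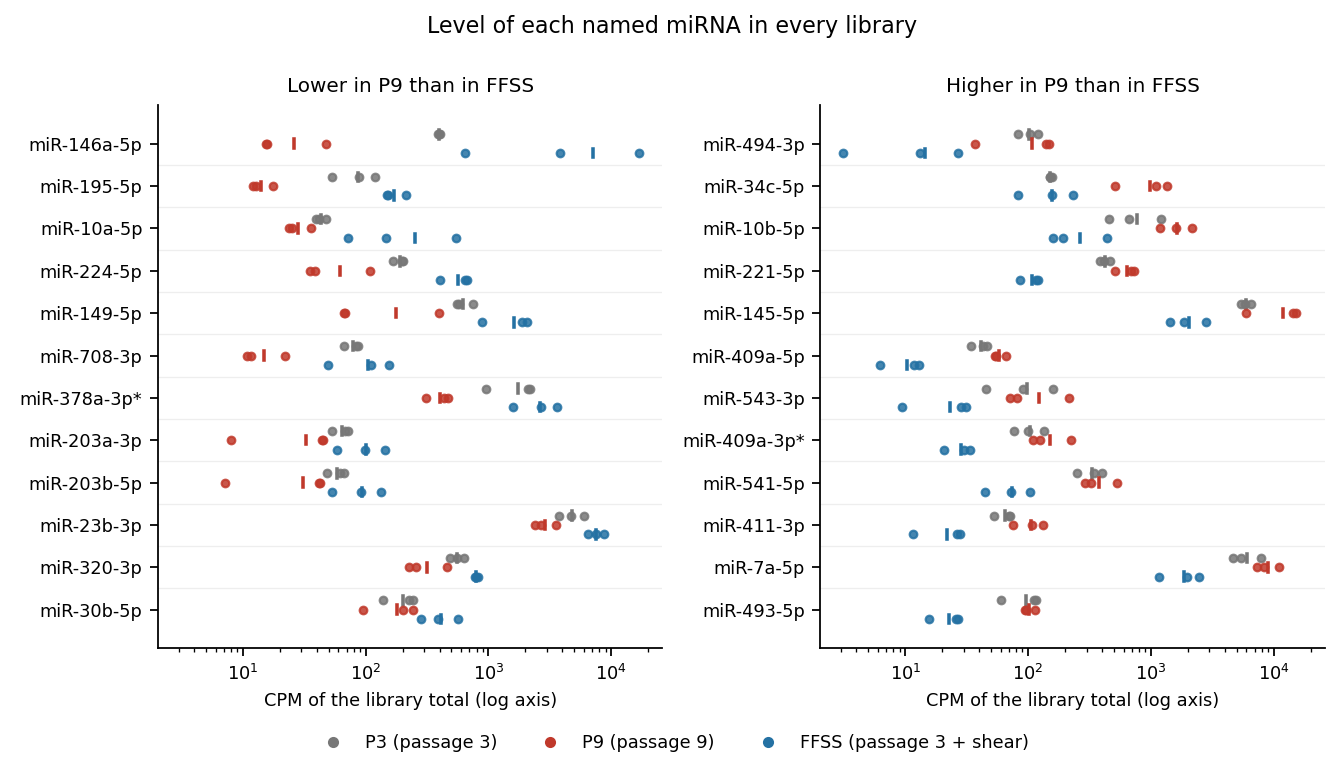
Level of the 12 miRNAs with the lowest (left) and the 12 with the highest (right) log2 fold change among those of at least 50 CPM without overlap, in every library (horizontal axis, CPM on a log axis). Points are libraries and ticks group means, in gray for P3, red for P9 and blue for FFSS, and a star marks a row that shares reads with an antisense row. In each row all red points lie on one side of all blue points, and the gray points lie nearer to the blue for miR-34c-5p and nearer to the red for the Dlk1-Dio3 miRNAs.

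The balance of the 2 arms of a hairpin does not depend on how libraries are scaled. It differed between P9 and FFSS for 7 of 89 hairpins (7.87%, limma on log2 ratios of 5p to 3p), beside 0 for P9 against P3 (0.00%, with 2 at an unadjusted p under 0.05) and 4 for FFSS against P3 (4.49%). The ratio was higher in P9 for miR-152 (1.94, adjusted p = 0.0156), miR-34c (2.02, adjusted p = 0.0156), miR-362 (1.78, adjusted p = 0.0274), miR-322 (2.40, adjusted p = 0.0496) and miR-145 (1.30, adjusted p = 0.0496). It was lower for miR-376b (-1.79, adjusted p = 0.0156) and miR-222 (-1.16, adjusted p = 0.0496). For miR-152, which represses DNA methyltransferases, the fold changes of the arms had opposite signs, with miR-152-5p at 87.3 ± 25.04 and 45.4 ± 18.3 CPM (1.07, adjusted p = 0.0336) and miR-152-3p at 4968 ± 1683 and 9244 ± 1017 CPM (-0.83, adjusted p = 0.0246). miR-152-5p lost its call without P9 replicate 2 (0.0898) or FFSS replicate 3 (0.0664). miR-152-3p lost it in 6 of 9 such fits, without P3 replicate 1 or 3, P9 replicate 2 or 3, or FFSS replicate 1 or 2 (0.0525 to 0.110). The count of 7 was 0 without P9 replicate 2 or FFSS replicate 1, 33 without P9 replicate 3, and 1 to 4 without any other library. In a fit of only P9 and FFSS it was also 0.

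Lists chosen by reported function did not move as a whole. Of 12 tested miRNAs reported in senescence, 3 were higher in P9 and 2 lower, with a median of 0.18. Of 16 reported as responsive to shear or stretch, 7 were higher and 3 lower (median 0.46), and of 13 tied to NF-kB and inflammation 4 were higher and 1 lower (median 0.17), beside 22.9% and 11.8% of all miRNAs. Each of the 3 lists contains miR-146a-5p and miR-21-5p, so their counts are not independent. Among inflammatory miRNAs, miR-31a-5p (1.17, adjusted p = 0.0250) was called although its groups overlapped, and it lost the call without P9 replicate 1, P9 replicate 2 or FFSS replicate 3 (0.0573 to 0.0704). miR-155-5p (1.08, adjusted p = 0.0575) and miR-132-3p (-0.23, adjusted p = 0.595) did not pass. The lists of miR-29, of miR-181 and of the miR-183 cluster with miR-96 and miR-182 had 0 called of 6, 8 and 3 tested members by edgeR, with 2, 2 and 0 at an unadjusted p under 0.05.

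The summed markers of blood, muscle, liver and nervous system overlapped between P9 and FFSS. The endothelial sum, like the epithelial sum given above, was lower in every P9 library than in every FFSS library. Of the endothelial rows, 0 of 2 tested were called. The 6 blood rows summed to 69.5 to 307 CPM in P9, 167 to 592 CPM in FFSS and 75.7 to 156 CPM in P3. Of 4 tested, 1 was lower in P9, beside 11.8% of all miRNAs. All 4 had fold changes below 0, with a median of -1.03. The 9 muscle rows gave 159 to 575, 201 to 568 and 151.8 to 167 CPM, the 2 liver rows 3.43 to 22.9, 15.5 to 51.4 and 10.1 to 11.7 CPM, and the 3 endothelial rows 275 to 491, 556 to 695 and 386 to 407 CPM, in the same order. The 15 nervous system rows summed to 663 to 1619 CPM in P9, 711 to 1492 CPM in FFSS and 582 to 1227 CPM in P3. Of 7 tested, 1 was lower in P9, near the 11.8% of all miRNAs. Fold changes were below 0 in 6 of the 7, with a median of -1.06. By edgeR 4 of the 7 had an unadjusted p under 0.05, beside 199 of 432 over all miRNAs. For muscle 3 of 5 tested rows were below 0 (median -0.10) and 0 were called. The 1 liver row tested, at -1.53, was not called but had an unadjusted edgeR p under 0.05. The blood call, miR-142-5p (-1.34, adjusted p = 0.0473), was lost without any single library but P9 replicate 3 (0.0567 to 0.194), and the nervous system call, miR-9a-3p (-1.77, adjusted p = 0.0246), without P9 replicate 1, P9 replicate 2, FFSS replicate 2 or FFSS replicate 3 (0.0556 to 0.151). miR-144-3p of blood was at 0 in P3, and miR-122-3p of liver in P9 and FFSS. The part of other cells in the differences between P9 and FFSS was not tested. The muscle and liver sums were highest in P9 replicate 3 among the P9 libraries and in FFSS replicate 1 among the FFSS libraries.

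**Figure D5:**
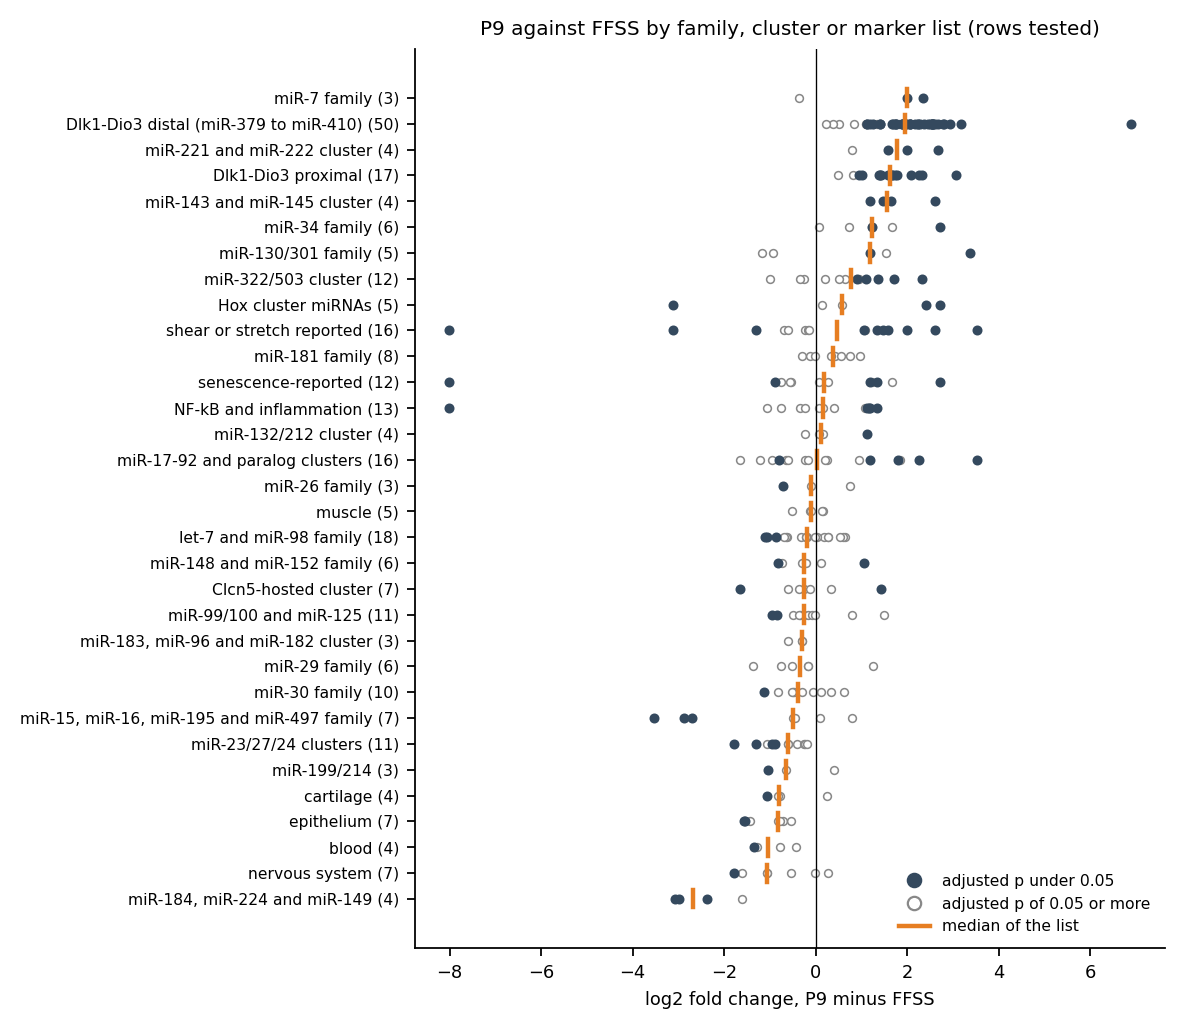
Log2 fold change of P9 against FFSS (horizontal axis) for the tested rows of each family, cluster or marker list with at least 3 of them (vertical axis, number tested in brackets). Filled points had an adjusted p under 0.05, open points did not, and orange bars are medians, which describe the list and are no test. The lists of miR-7, of the Dlk1-Dio3 locus, of miR-221 with miR-222 and of miR-143 with miR-145 have the highest medians, and the list of miR-184, miR-224 and miR-149 the lowest, at -2.69.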

How the data were processed

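Small RNA was sequenced from total RNA for 9 libraries, after selection of short inserts, per the labels' protocols. Reads were aligned with Bowtie and the build was Rnor_6.0, per the submitters' processing notes. No source used here gives the counter, the annotation release or the predictor of unannotated miRNAs. The authors deposited 1 table with raw read counts and TPM per miRNA row. The deposited TPM equalled CPM of the library total within 4.85e-05, so levels were computed from the counts. Rows whose counts agreed within 10% or 5 reads in every library were taken to share reads (29 pairs), since the counter may have given the same reads to both.

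Counts of all 9 libraries were fitted together in R 4.3.3 with edgeR 4.0.16 (filterByExpr, TMM, robust quasi-likelihood), with p-values adjusted over the 439 rows tested, 7 of them predicted. Predicted rows held at most 0.00703% of a library's reads. Ratios within libraries were log2 ratios of counts after adding 0.5, for rows of at least 20 counts on average, tested with limma 3.58.1. Counts summed by seed were tested with edgeR. DESeq2 1.42.0 was an alternative, as were limma-voom, other scalings, filters, thinning and leaving out libraries. The scripts were tested on simulated data.

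Named miRNAs were the 12 with the largest change in each direction among called, non-overlapping rows of at least 50 CPM, the 8 paralog pairs, 6 hairpins and 6 seed families with the smallest p, up to 3 called members of each of 36 lists, both arms of miR-708, and the 5 with the most reads. Some others were named after their values were seen: miR-592, miR-154-3p, miR-384, miR-325-5p, miR-127-3p, miR-145-3p, miR-17-5p, miR-93-5p, miR-24-3p, miR-31a-5p, miR-140-5p and miR-455. Also outside the rule were miR-155-5p, miR-132-3p, miR-27a-3p and miR-184, which did not pass and were not followed through the other fits. The members and lists were chosen with earlier results of these data known.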

Additional observations from a re-analysis of the deposited data

How the results depend on the processing

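The 99 higher and 51 lower calls came with other counts where the processing changed. DESeq2 gave 77 lower, log2(TPM + 10) gave 80 lower, a fit of only P9 and FFSS libraries 27 lower, the test for a log2 fold change of at least 1 gave 45 higher and 17 lower, and leaving out both P9 replicate 3 and FFSS replicate 1, an alternative added after seeing the data, gave 135 higher and 82 lower. The share of higher calls was 66.0%, and 55.3% with upper-quartile factors, 55.9% with log2(TPM + 1) and 53.5% with log2(TPM + 10). Leaving out 1 library in turn gave 78 to 122 higher and 27 to 78 lower, 17 to 37 paralog ratios, 0 to 33 arm ratios and 13 to 21 seed families. With only P9 and FFSS the ratios gave 16 paralog and 0 arm calls. The causes were not tested.

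The replicate numbers did not pair the samples (correlations of same-numbered P9 and FFSS libraries -0.110, 0.102 and 0.0858). With the replicate block, 90 miRNAs were higher and 34 lower, and 18 paralog ratios, 4 arm ratios and 15 seed families passed.

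Of 82 named called miRNAs, 39 kept their call in every fit that gave them a result, at most 26, and 57 in every fit that left out 1 library. Scarce miRNAs had no result in some fits. For example, miR-19a-3p and miR-384-3p had a result in 24. The 16 named values that changed sign belonged to miRNAs that had not passed. miR-34a-5p was -0.0109 with library size alone, -0.0477 with log2(TPM + 1), -0.0450 with log2(TPM + 10), and -0.123 to 0.53 over the fits without 1 library. miR-106b-5p was -0.0780 and -0.0278 with log2(TPM + 1) and log2(TPM + 10) and -0.145 to 0.673 without 1 library. Over the same fits miR-99a-5p was -1.55 to 0.123, miR-362-3p -0.545 to 0.0252 and miR-322-3p -0.41 to 0.0524. Without both P9 replicate 3 and FFSS replicate 1, miR-362-3p was 0.157, miR-16-5p 0.0505 and miR-299b-3p -0.212. Depth limits scarce miRNAs most in FFSS replicates 1 and 3, where 3 reads are 1.04 and 0.770 CPM.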
